A study of Mus musculus with 9 samples.

Results

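The 7 genes described here encode the core of both classical antigen presentation pathways: Cd74, H2-Aa, H2-Ab1 and H2-Eb1 of MHC class II, and H2-D1, H2-K1 and B2m of class I. They were chosen by name, as 7 of the 18634 genes in a table of transcript counts for 29571 mouse brain cells. Single-cell RNA sequencing had been run on brainstem, cortex and hypothalamus of wild-type C57BL/6 mice (C57BL/6J in the study's methods) aged 9 to 11 weeks. Mice of the NS group slept normally, those of the SD group were kept awake for 12 h, and those of the RS group were kept awake as long and then left to recover. That recovery lasted 24 h in the protocol and 12 h in the name of the group. All brains were taken at ZT12 (zeitgeber time, counted from lights on). For every region and sleep group the tissue of 3 mice was combined, dissociated with papain, cleared with myelin removal beads and captured with the 10x Chromium version 2 kit. Each of the 9 combinations is therefore 1 library without a replicate, no p-value is given, and every interval below is a 95% interval for counting error only.

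The table marks cells with 9 library codes that the sample labels do not explain, so libraries are numbered 1 to 9 by their order in it. Library 7 was taken as brainstem NS because it held all 1999 barcodes that were read from the study's cell list for that sample, against 5 to 13 in each other library. Its position markers went the same way, with 135 transcripts over all 11 Hox genes of the hindbrain list and 1 over the 4 forebrain genes. These markers assigned no library: library 9 held 190 Hox UMIs and library 8 held 25, while forebrain genes were at 187 to 229 CPM in libraries 1 to 3. Region and sleep group of the other 8 libraries are not known here, and no sleep comparison was made. Libraries held 1522766 to 5488950 transcripts, counted as unique molecular identifiers (UMIs), with medians of 402 to 1055 per cell. In libraries 4, 5 and 6, pituitary hormone genes took 30.3%, 30.0% and 37.9% of all UMIs. Of 29015 barcodes, 549 occurred in more than 1 library, and doublets were not removed.

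Class I molecules present peptides from inside the cell to CD8 T cells. Their heavy chains, here H2-D1 and H2-K1, reach the surface paired with the light chain B2m, and most nucleated cells make them. Class II molecules present peptides from ingested material to CD4 T cells and are largely limited to macrophages, dendritic cells and B cells. H2-Aa encodes the alpha chain of I-A, H2-Ab1 its beta chain and H2-Eb1 the beta chain of I-E, whose alpha chain C57BL/6 mice lack. The invariant chain Cd74 blocks their groove until they reach the compartment where peptides are loaded. In the healthy brain, class II protein is best known from macrophages of the meninges, perivascular space and choroid plexus, while resting microglia carry little.

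On GRCm38 with GENCODE M21, the genes of the H2 complex lie on chromosome 17. They are H2-K1 at chr17:33996017-34000347 (minus strand), H2-Ab1 at chr17:34257689-34269419 (plus), H2-Aa at chr17:34282744-34287823 (minus), H2-Eb1 at chr17:34305867-34316674 (plus) and H2-D1 at chr17:35262730-35267499 (plus). B2m lies at chr2:122147686-122153083 (plus) and Cd74 outside both chromosomes. The 250 bases before the transcription start are shown for the 5 members found in the RefSeq promoter table (GRCm38.p6), because they show which short elements class II and class I genes share. Cd74 and H2-Ab1 were not among its entries. The stretches are chr17:34287824-34288073 (minus) for H2-Aa, chr17:34305617-34305866 (plus) for H2-Eb1, chr17:34000334-34000583 (minus) for H2-K1, chr17:35262844-35263093 (plus) for H2-D1 and chr2:122147437-122147686 (plus) for B2m. That of H2-D1 lies inside the GENCODE span of the gene. H2-K1 had 2 entries whose starts are 14 bases apart, and the stretch before the more downstream one is shown. Capitals mark matches to the 4 motifs described after the sequences.
H2-Aa: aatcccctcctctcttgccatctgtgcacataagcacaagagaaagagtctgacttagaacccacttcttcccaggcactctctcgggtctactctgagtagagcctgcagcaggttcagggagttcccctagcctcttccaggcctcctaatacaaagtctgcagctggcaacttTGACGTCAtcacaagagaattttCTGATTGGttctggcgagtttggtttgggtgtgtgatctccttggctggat
H2-Eb1: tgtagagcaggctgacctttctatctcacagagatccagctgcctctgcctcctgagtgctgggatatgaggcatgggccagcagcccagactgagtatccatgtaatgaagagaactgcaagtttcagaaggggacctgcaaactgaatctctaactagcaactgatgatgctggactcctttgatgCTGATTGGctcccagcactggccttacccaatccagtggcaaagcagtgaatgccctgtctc
H2-K1: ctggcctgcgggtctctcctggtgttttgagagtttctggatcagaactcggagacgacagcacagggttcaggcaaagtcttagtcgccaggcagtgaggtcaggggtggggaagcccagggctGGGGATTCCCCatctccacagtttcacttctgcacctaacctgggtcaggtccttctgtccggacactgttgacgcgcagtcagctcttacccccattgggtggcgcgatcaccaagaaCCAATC
H2-D1: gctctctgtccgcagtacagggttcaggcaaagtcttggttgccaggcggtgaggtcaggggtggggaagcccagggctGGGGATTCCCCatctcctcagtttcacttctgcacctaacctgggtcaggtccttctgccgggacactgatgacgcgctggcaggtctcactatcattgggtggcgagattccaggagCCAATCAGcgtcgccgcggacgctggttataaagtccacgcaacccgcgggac
B2m: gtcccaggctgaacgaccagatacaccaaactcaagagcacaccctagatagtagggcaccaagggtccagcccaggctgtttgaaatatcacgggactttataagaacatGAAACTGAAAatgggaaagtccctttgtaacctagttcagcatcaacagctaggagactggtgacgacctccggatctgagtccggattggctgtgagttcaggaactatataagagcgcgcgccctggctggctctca

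Both strands of each full window, 250 bases before to 50 after the start, were searched for 4 strings. The Y box CTGATTGG began 51 bases before the start of H2-Aa and 62 before that of H2-Eb1, on the gene's strand. On the opposite strand, read as CCAATCAG, it lay 53 bases before the start of H2-D1 and 6 before that of H2-K1, where its last 2 bases fall past the printed end. This string was in 4.10% of all 32851 windows. The kappa B type string, 11 bases long and in capitals in both heavy chain sequences, lay 171 bases before the start of H2-D1 and 125 before that of H2-K1, and in 0.0304% of windows (10 of 32851). H2-Aa also held the CRE core TGACGTCA 74 bases before its start (1.79% of windows), and B2m an ISRE type string of 10 bases 139 bases before (3.44%). The matches are letters in a window and were not tied to any level measured here.

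The study's list gave 11 named types for 1998 cells of library 7. In these cells class II transcripts stood out in one type, while class I transcripts were spread over microglia, endothelial cells and macrophages. Levels are UMIs scaled to a common total (CPM), so each is a share of the type's own RNA. The list's names were checked against marker genes. The 8 macrophage markers, 6 microglia markers, 5 endothelial markers and 6 astrocyte markers each had their highest level in the type of that name, but only 2 of 6 neuron markers were highest in the glutamatergic neurons. The 4 B cell markers and the 4 T or NK cell markers found in the table were also highest in the 67 listed macrophages. So were 4 of 7 dendritic cell markers (229 CPM summed) and 2 of 4 monocyte markers (373 CPM), so that label covers more than macrophages.

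Cd74 was at 25277 CPM (24207 to 26382, 2099 UMIs) in the listed macrophages and at 244 CPM (203 to 291) in the 549 microglia, a ratio of 103 (86.2 to 125). H2-Aa, the I-A alpha chain, was at 5576 CPM in macrophages and 15.8 CPM in microglia. H2-Ab1 was at 5684 against 33.5 CPM, and H2-Eb1 at 2938 against 21.7 CPM. The ratios of these chains were 354 (178 to 824), 170 (105 to 294) and 136 (74.4 to 275). The size of these ratios depends on how cells are named. Between the 127 macrophage-like and 978 microglia-like cells of the same library, found by clustering without the MHC genes, they were 46.8 (42.4 to 51.7) for Cd74, 82.1 (62.7 to 109.5) for H2-Aa, 46.6 (38.0 to 57.6) for H2-Ab1 and 54.6 (40.4 to 75.2) for H2-Eb1. Cd74 was then at 23065 and 493 CPM, and 4 of those 978 cells had class II at 1% of their UMIs or more. Summed over listed cells, the 4 genes were at 39475 CPM in macrophages and 315 CPM in microglia. Below the macrophages each pair of types next to each other in the order of a class II chain had overlapping intervals, while the ends could differ, as for H2-Aa at 69.3 CPM (25.4 to 151) in oligodendrocytes and 6.49 CPM (0.786 to 23.5) in arterial smooth muscle cells (VSMCA). H2-Ab1 had no UMI in the 55 glutamatergic neurons, and H2-Eb1 had none there, in ependymocytes (EPC) or in the hemoglobin-expressing vascular cells (HbVC).

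Cd74 was low in every other type, where free RNA picked up by droplets also gives UMIs. It was at 57.1 CPM in 573 endothelial cells, 64.7 CPM (11 UMIs) in 188 astrocytes, 58.7 CPM in 88 ependymocytes and 22.7 CPM (1 UMI) in the 19 HbVC. Microglia were 4.28 times (2.95 to 6.36) the endothelial level. A Cd74 UMI was found in 11.7% of microglia and 5.06% of endothelial cells, types with medians of 796 and 910.0 UMIs. After each cell was thinned to 500 UMIs the shares were 7.56% and 2.98%, and 68.2% in macrophages against 70.1% before. Among types that should lack the gene, thinned shares were 2.16% (0.592% to 5.44%) in astrocytes, 1.83% in pericytes, 1.14% in ependymocytes and 0.435% (0.0110% to 2.40%) in VSMCA. The endothelial interval, 1.75% to 4.73%, overlapped these. Of the 43 oligodendrocytes, 6 held 18 Cd74 UMIs (208 CPM, up to 7 in a cell), and none held one after thinning.

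**Figure D1:**
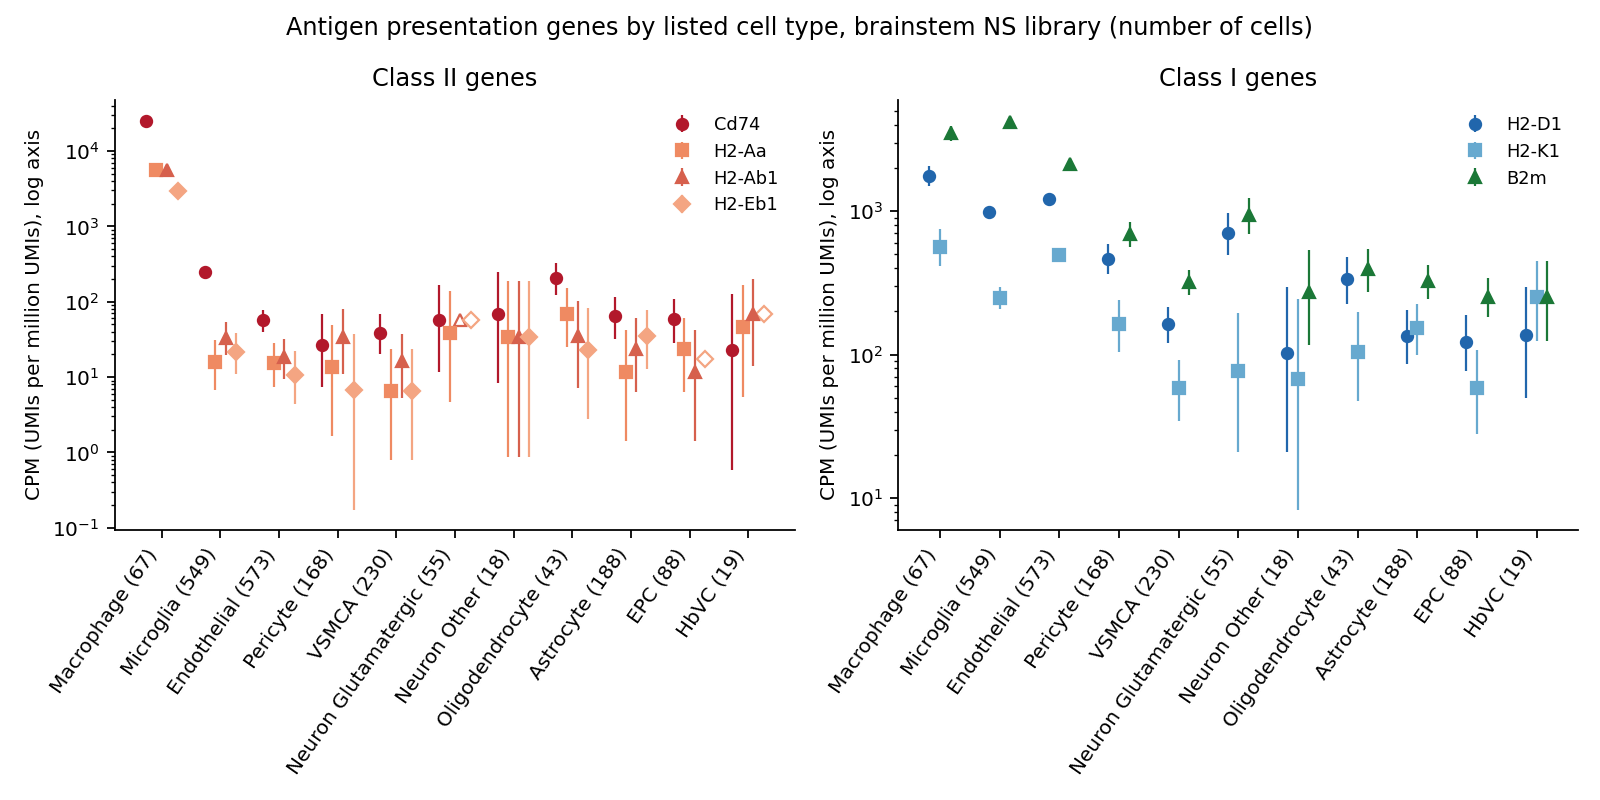
Levels of the 4 class II genes (left) and 3 class I genes (right) in the 11 listed cell types of the brainstem NS library, in CPM on log axes. Points are sums over the cells of a type, whose number is in parentheses, bars are 95% Poisson intervals, and open symbols mark 0 UMIs at the limit that 3 counts allow. Class II genes stand apart in macrophages, with Cd74 at 25277 CPM, while B2m passes 2000 CPM in macrophages, microglia and endothelial cells.

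The class I genes had a shallower slope across types. B2m was highest in microglia, at 4183 CPM (4007 to 4365), which was 1.20 times (1.06 to 1.36) the macrophage level of 3492 CPM and 1.96 times the endothelial level of 2131 CPM. H2-D1 was highest in macrophages, at 1758 CPM, then in endothelial cells at 1206 CPM (1123 to 1293) and microglia at 979.7 CPM. The steps were 1.46-fold (1.21 to 1.74) and 1.23-fold (1.10 to 1.38), so the order of the heavy chain in these types differs from that of the light chain.

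H2-K1 was at 566 CPM in macrophages, 492 CPM in endothelial cells and 248 CPM in microglia. The first pair did not differ beyond counting error, with a ratio of 1.15 (0.828 to 1.57), while endothelial cells were 1.98 times (1.61 to 2.45) microglia. Within the vessel wall both heavy chains fell off outside the endothelium. H2-D1 was at 466 CPM in 168 pericytes and 162 CPM in 230 VSMCA, and H2-K1 at 162 and 58.4 CPM. B2m was at 689.5 CPM in pericytes and 318 CPM in VSMCA. A B2m UMI was found in 88.9% of microglia, 92.5% of macrophages and 77.3% of endothelial cells, and in 32.6% of VSMCA. At 500 UMIs per cell those shares were 79.9%, 75.8%, 58.4% and 11.7%.

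Astrocytes and ependymocytes were low in H2-D1 and B2m. H2-D1 was at 135 CPM in astrocytes and 123 CPM in ependymocytes, and B2m at 324 and 252 CPM. Their H2-K1 was at 153 CPM (99.9 to 224) and 58.7 CPM, the first of which overlapped pericytes and microglia. The 55 glutamatergic neurons stood above both in 2 of the genes, with H2-D1 at 705 CPM (497 to 972, 37 UMIs) and B2m at 934 CPM, whereas H2-K1 was at 76.3 CPM with 4 UMIs. Their H2-D1 level was 5.21 times (3.02 to 9.19) that of astrocytes and 6.93 times (2.19 to 35.1) that of the 18 other neurons, which had 3 UMIs. It did not differ beyond counting error from that of pericytes, with a ratio of 1.51 (0.986 to 2.29).

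The H2-D1 UMIs of the glutamatergic neurons came from 20 cells, 13 of them with 1 UMI and none with more than 6. These 20 had a median of 1001.5 UMIs, against 661 in the 35 neurons without H2-D1. The 5 endothelial markers summed to 1941 CPM in the first set and 602 CPM in the second, and the 6 microglia markers to 1899 and 425 CPM. The 6 neuron markers went the other way, at 2601 and 4783 CPM. The part of RNA or cells of other types in the neuronal H2-D1 level was not tested.

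Against all other listed cells, and after 10 CPM was added to both, the 4 class II genes were 225-fold (Cd74), 199-fold (H2-Aa), 167-fold (H2-Ab1) and 124-fold (H2-Eb1) higher in macrophages. Of 5703 genes with at least 50 UMIs, these were the 4 with the largest fold. They were also the members called at 4-fold, 4 of 7, where 0.807% of genes tested were called. H2-Aa and H2-Eb1 had 39 and 30 UMIs outside macrophages, so they passed the filter of 50 UMIs only through macrophages. Their rank and call are therefore a description and no test. H2-D1, H2-K1 and B2m were 2.49-fold, 2.18-fold and 1.93-fold higher in macrophages and ranked 156, 259 and 365. In microglia no member reached 4-fold, where 4.52% of genes did, and B2m was 3.49-fold higher. In endothelial cells none reached it either, with 4.45% of genes called, and H2-K1 was 2.74-fold and H2-D1 2.17-fold higher.

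The genes nearest to each member in pattern were found by Pearson's r of log2(CPM + 10) over the 8 listed types of at least 50 cells, which share 1 library and its free RNA. For Cd74 they were Wfdc17 (r = 0.977), the chemokine Ccl5 (0.973) and lysozyme Lyz2 (0.969). Ccl5 is also a leading gene of the subcluster of T or NK cell genes described below, which held 594 CPM of class II, and at a pseudocount of 1 CPM Lyz2 was the only one of the 3 still among the nearest. Cd74 had r = 0.958 with H2-Aa, 0.950 with H2-Ab1 and 0.959 with H2-Eb1, but 0.584 to 0.626 with the class I genes. For B2m they were Trim30a (0.968), Nmt1 (0.963) and the immunoproteasome subunit Psmb8 (0.951). For H2-D1 they were Dap (0.980), the peptide loading factor Tapbp (0.955) and B2m (0.948). For H2-K1 they were Smagp (0.951), Sp100 (0.943) and S100a13 (0.941). At a pseudocount of 1 CPM only Nmt1 stayed among the nearest for B2m and only S100a13 for H2-K1, while those of H2-D1 stayed. With 8 types and 5703 genes these values are a description.

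Single macrophages fell into 2 sets by class II. Of the 67 listed cells, 29 held 0 to 3 class II UMIs, none held 4 to 10, and 38 held 11 to 234. In the 38 class II-high cells the 4 genes took a median of 5.44% of all UMIs of the cell, from 1.30% to 16.9%. In the 29 class II-low cells the highest share was 0.315%, and 17 of them had no class II UMI. The medians of depth were 1278.5 UMIs in the high and 894 in the low cells. All 4 genes were found together in 34 of the 38 high cells, and no low cell had more than 2 of them. In 549 microglia, 541 held 0 to 3 class II UMIs, 6 held 4 to 10, and 2 more than that, up to 14.

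**Figure D2:**
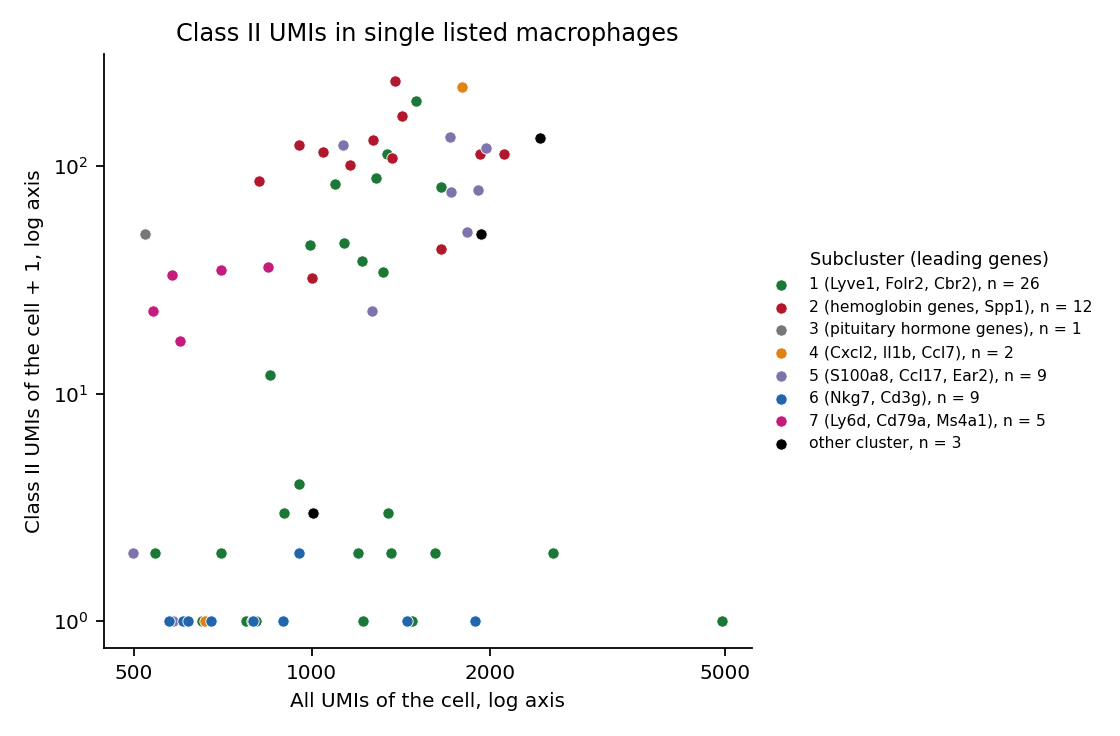
Class II UMIs (Cd74, H2-Aa, H2-Ab1 and H2-Eb1 summed, plus 1) against all UMIs in each of the 67 listed macrophages of the brainstem NS library, on log axes. Colours give the subcluster of the cell, found without the MHC genes. The 38 cells with 11 to 234 class II UMIs and the 29 with 0 to 3 are separated by an empty range and overlap in depth, and the cells of subcluster 6 all lie at the bottom.

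Because the sets were divided by class II, only other genes are compared between them, as values without a test. The class II peptide exchange factor H2-DMa had 51 UMIs in 24 of 38 high cells and 4 UMIs in 3 of 29 low cells. Its partner H2-DMb1 had 40 UMIs in 21 high cells and none in low cells. Ctss, the protease that trims the invariant chain, had 151 UMIs in 34 high cells and 30 in 12 low cells. Within the listed macrophages, the UMIs of these loading genes thus came mostly from the class II-high cells. The 549 microglia, with little class II, held 205 UMIs of H2-DMa, 100 of H2-DMb1 and 4915 of Ctss. As CPM, all listed macrophages were above microglia for H2-DMa (662 against 404) and H2-DMb1 (482 against 197). For Ctss they were below (2180 against 9689).

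The class I genes did not all go one way between the sets. H2-D1 was at 1800 CPM (1448 to 2213) in high cells and 1694 CPM (1280 to 2200) in low cells. B2m was higher in the high cells, at 3881 against 2905 CPM, which is the direction of class II. H2-K1 was lower in the high cells, at 320.1 CPM (183 to 520) against 938 CPM (637 to 1331). Of the 8 macrophage markers, the mannose receptor Mrc1 was at 240.1 CPM in high and 696 CPM in low cells, Pf4 at 700.2 and 1573, and Cd163 at 40.0 and 272. Lyz2 went the other way, at 14123 and 4417 CPM. The intervals of Cd163, Lyve1, F13a1, Cbr2 and Ms4a7 overlapped between the sets. The T cell receptor component Cd3g and the cytotoxic granule gene Nkg7 had no UMI in high cells, but 15 UMIs in 7 low cells and 19 UMIs in 6. The B cell gene Ly6d had 13 UMIs in 4 high cells and none in low cells. Cells of other lineages under the macrophage label therefore sat in both sets, and their part in the H2-K1 difference was not tested.

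Clustering all 29571 cells without the MHC genes gave 1 macrophage-like cluster, named from its markers, of 659 cells. These 2.23% of cells held 82.4% of all class II UMIs, and the microglia-like cells, 11.3% of cells, held 7.27%. Cells in which class II took at least 1% of UMIs numbered 335 of 659 (50.8%), with 45 cells between 0.5% and 2%. Among all 29571 cells, 380 (1.29%) passed 1%, and 26 of those were microglia-like.

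The 659 cells were divided further into 7 subclusters, again without the MHC genes, and class II separated them widely. Subcluster 1, led by Lyve1, Folr2 and Cbr2, genes of perivascular and leptomeningeal macrophages, had 10078 CPM of class II over 213 cells, and 16.4% of its cells were class II-high. Subcluster 2 (138 cells), led by hemoglobin genes and Spp1, was at 54842 CPM with 81.9% of cells high. Subcluster 5 (79 cells), led by S100a8, Retnlg, Ccl17 and Ear2, was at 46042 CPM with 74.7% high. Dendritic cell markers summed to 1269 CPM there, monocyte markers to 1942 and neutrophil markers to 9760. Subcluster 4 (80 cells), led by Cxcl2, Atf3 and Il1b, was at 38973 CPM with 63.8%.

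Subcluster 3 (86 cells), led by the pituitary hormone genes Prl, Gh and Pomc, was at 45416 CPM. Hemoglobin genes took 28594 CPM in subcluster 2 and pituitary hormone genes 105243 CPM in subcluster 3, and the part of free RNA or doublets in these 2 groupings was not tested. Subcluster 6 (46 cells), led by Nkg7, Cd3g and Ms4a4b, had only 594 CPM of class II but high class I, with H2-D1 at 2054, H2-K1 at 1351 and B2m at 3459 CPM. Subcluster 7 (17 cells), led by Jchain, Ly6d, Cd79a and Ms4a1, was at 23938 CPM of class II and had no UMI of the 8 macrophage markers. Of the 67 listed macrophages, 9 lay in subcluster 6, all class II-low, and 5 in subcluster 7, all class II-high. Without these 14, class II in the listed macrophages was at 43998 CPM.

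The accessory genes of both pathways had been listed by role. Of 13 class II accessory genes, 8 had at least 20 UMIs in the listed cells. The type next in level had an overlapping interval for all but H2-DMa, H2-DMb1, Ctss and Lgmn. H2-DMa (662 CPM), H2-DMb1 (482 CPM) and H2-Ob (48.2 CPM) were highest in macrophages. The proteases Ctss (9689 CPM) and Lgmn (3988 CPM), the costimulatory ligand Cd86 (118 CPM) and H2-Oa (41.4 CPM) were highest in microglia. Ifi30, a lysosomal thiol reductase, was highest in pericytes at 101 CPM, and Ciita, the class II transactivator, had no UMI in any listed cell. Microglia were thus highest for the proteases while having 315 CPM of class II itself.

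Of 14 class I peptide loading genes, 13 had enough UMIs, and only Psmb9, Calr and Canx had a highest type whose interval was clear of the next. The immunoproteasome genes Psmb8 (458 CPM) and Psmb9 (217 CPM) and the proteasome activators Psme1 (325 CPM) and Psme2 (241 CPM) were highest in macrophages. The third immunoproteasome subunit Psmb10 (128 CPM) and the trimming peptidase Erap1 (21.6 CPM) were highest in endothelial cells. The peptide transporter gene Tap1 (17.7 CPM) and Pdia3 (477 CPM) were highest in microglia, and Tap2 (94.6 CPM) in pericytes. The general chaperones Calr (1449 CPM) and Canx (839 CPM) were highest in glutamatergic neurons. Tapbpl (194 CPM) was highest in ependymocytes and Tapbp (238 CPM) in the 18 other neurons.

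Of 10 other class I heavy chain genes, 5 had at least 20 UMIs, and for all 5 the highest type overlapped the next. H2-T22 (72.5 CPM) and H2-Q4 (55.5 CPM) were highest in endothelial cells, H2-T23 (217 CPM) and H2-Q7 (48.2 CPM) in macrophages, and H2-M3 (80.8 CPM) in oligodendrocytes. Class I heavy chains resemble each other closely, and reads that map to more than 1 of them are not counted, so their levels, H2-D1 and H2-K1 included, are uncertain by an unknown part. Among the regulators, the transcription factor Irf8 (363 CPM) and the interferon gamma receptor genes Ifngr1 (753 CPM) and Ifngr2 (116 CPM) were highest in microglia, as was Rfxap (21.7 CPM). Irf1 (27.8 CPM) was highest in endothelial cells and Rfxank (52.9 CPM) in astrocytes. Of these only Ifngr1 was clear of the type next in level.

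H2-D1 and H2-K1 are used below as a ratio of UMIs. Counts of 3' ends were not divided by gene length, and uncounted shared reads can shift this ratio, so only its difference between cells is read. The listed endothelial cells had 2.45 H2-D1 UMIs per H2-K1 UMI (2.15 to 2.80), macrophages 3.11 (2.22 to 4.41), microglia 3.94 (3.24 to 4.84) and glutamatergic neurons 9.25 (3.32 to 35.7). Astrocytes had 0.885 (0.482 to 1.61), so their interval lay below those of the other 4 types.

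The named classes over all libraries gave the same contrast for astrocytes against endothelial cells, microglia and neurons. Endothelial-like cells were at 2.37 (2.22 to 2.53), microglia-like at 3.46 (3.13 to 3.82), pericyte-like at 2.35 (2.01 to 2.75) and neuron-like at 4.89 (3.56 to 6.85). Astrocyte-like cells were at 0.875 (0.743 to 1.03) from 280 H2-D1 and 320 H2-K1 UMIs, and EPC-like cells at 0.915 (0.760 to 1.10). The listed cells left ependymocytes and HbVC uncertain, since listed EPC were at 2.10 (0.947 to 4.99) and listed HbVC at 0.545 (0.166 to 1.61), against 4.40 (1.63 to 14.9) in HbVC-like cells. Pituitary stem or folliculostellate-like cells were at 1.04 (0.911 to 1.19). By library the ratio ran from 2.00 to 4.13 in endothelial-like, 2.10 to 4.33 in microglia-like and 0.452 to 1.52 in astrocyte-like cells. Within a library it was lower in astrocyte-like than in endothelial-like cells in 9 of 9, and lower than in microglia-like cells in 9 of 9. The intervals were apart in 6 of 9 in each case and overlapped in libraries 2, 5 and 6.

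**Figure D3:**
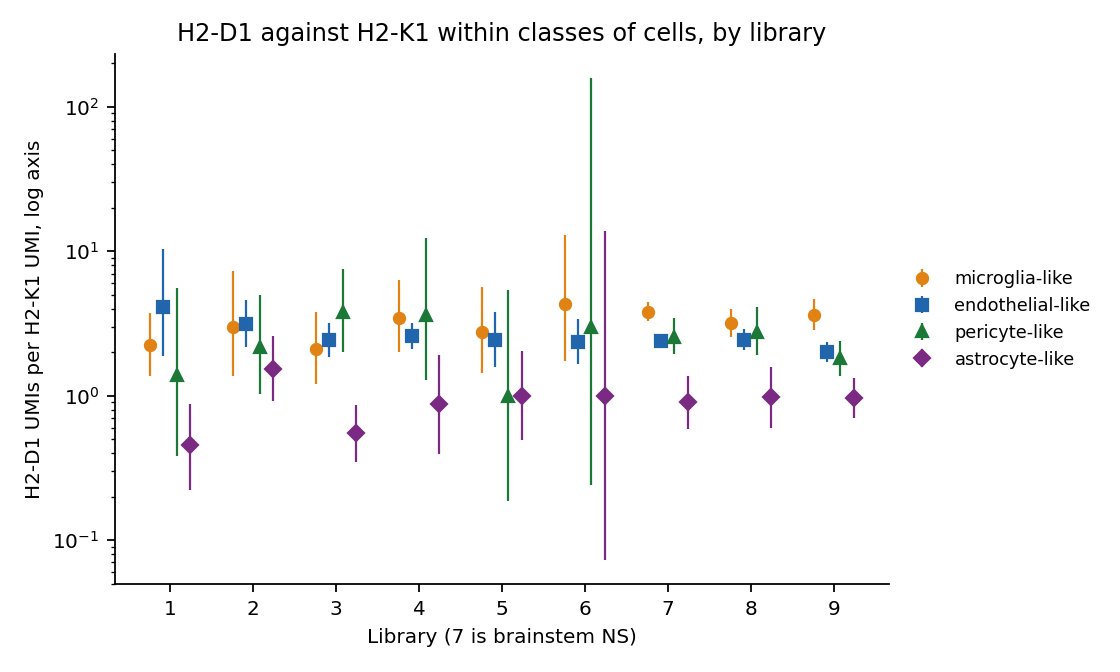
H2-D1 UMIs per H2-K1 UMI, on a log axis, in microglia-like, endothelial-like, pericyte-like and astrocyte-like cells of each of the 9 libraries, with exact 95% intervals. The astrocyte-like point lies below the microglia-like and endothelial-like points in all 9 libraries. Wide bars in library 6 come from 4 UMIs of each of astrocyte-like and pericyte-like cells.

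The light chain was also not in a fixed proportion to the heavy chains. Per UMI of H2-D1 and H2-K1 together, B2m had 3.41 UMIs (3.11 to 3.73) in microglia, 1.50 in macrophages, 1.26 in endothelial cells and 1.12 in astrocytes. Microglia-like cells ranged from 1.53 in library 6 to 6.05 in library 1. Cd74 per UMI of the 3 class II chains was 1.78 (1.66 to 1.91) in listed macrophages and 3.44 (2.36 to 5.14) in listed microglia. By library it was 1.30 to 1.95 in macrophage-like cells and 1.33 to 3.57 in microglia-like cells. The microglia-like cells of library 7 were at 2.14 (1.82 to 2.53). Compared within each library, it was higher in microglia-like than in macrophage-like cells in all but library 8, where they were at 1.33 and 1.95. The intervals were apart only in library 3, at 3.57 and 1.54. In library 7 they overlapped narrowly, with macrophage-like cells at 1.73 (1.63 to 1.83). Overlap of separate intervals does not settle a difference, and the contrast was not tested directly.

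Over whole libraries all 7 genes were highest in library 7, the brainstem NS library. Cd74 was at 120, 134, 84.4, 374, 351, 119, 904, 651 and 727 CPM in libraries 1 to 9, and a Cd74 UMI was found in 0.971% to 10.5% of their cells. B2m was at 559, 379.6, 341, 578, 629, 277, 1641, 1164 and 999.9 CPM, found in 16.2% to 60.3% of cells. H2-D1 was at 110, 146, 112, 237, 154, 126, 639.9, 362 and 315 CPM, found in 5.98% to 41.8% of cells. All 3 genes were higher in libraries 7 to 9, whose codes share a stem of unknown meaning, than in libraries 1 to 6, with no overlap. So were 18.4% of 6606 genes. At this level fewer cells of a type and less RNA per cell cannot be told apart.

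H2-K1 was at 50.6, 54.3, 53.9, 138, 89.5, 111, 238, 152 and 154 CPM. H2-Aa was at 28.2, 31.5, 14.7, 82.0, 87.7, 24.0, 194, 113 and 164 CPM. H2-Ab1 went from 20.2 CPM in library 3 to 218 in library 7, and H2-Eb1, at 114 CPM in library 7, was also lowest in library 3. In all 4 class II genes library 7 was thus highest and library 3 lowest, a last step that counting error resolved for Cd74 and H2-Aa and not for H2-Ab1 and H2-Eb1, with libraries 4 and 5 in the middle and library 6 among the low ones.

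The highest library was 10.7 times (9.54 to 12.1) the lowest for Cd74, 13.2 times (10.0 to 17.7) for H2-Aa, 10.8 times (8.55 to 13.9) for H2-Ab1 and 7.64 times (5.78 to 10.3) for H2-Eb1. The class I genes ranged 5.80-fold (4.96 to 6.82) for H2-D1, 4.71-fold (3.74 to 6.02) for H2-K1 and 5.93-fold (5.61 to 6.27) for B2m. The interval of H2-Eb1 overlapped those of all 3, and as a mean over cells its range, 4.68-fold, was below that of H2-D1 (5.73-fold) and that of B2m. Summed, class II ran from 134 to 1431 CPM, 10.7-fold (9.73 to 11.7), and class I from 507 to 2519 CPM, 4.96-fold (4.73 to 5.22). In cells of at least 1000 UMIs the class I range was 10.5-fold and class II was found with only 2 UMIs in the 326 such cells of library 1. All 7 members differed at least 4-fold between the highest and lowest library after 10 CPM was added, as did 23.9% of 6606 genes. All 7 were higher in each of libraries 7 to 9 than in each of libraries 1 to 6, as were 18.4% of genes. When each cell was given the same weight, library 9 was highest for Cd74, H2-Aa and H2-Ab1 and library 5 for H2-Eb1, so the place of library 7 at the top of class II rests on summing UMIs.

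**Figure D4:**
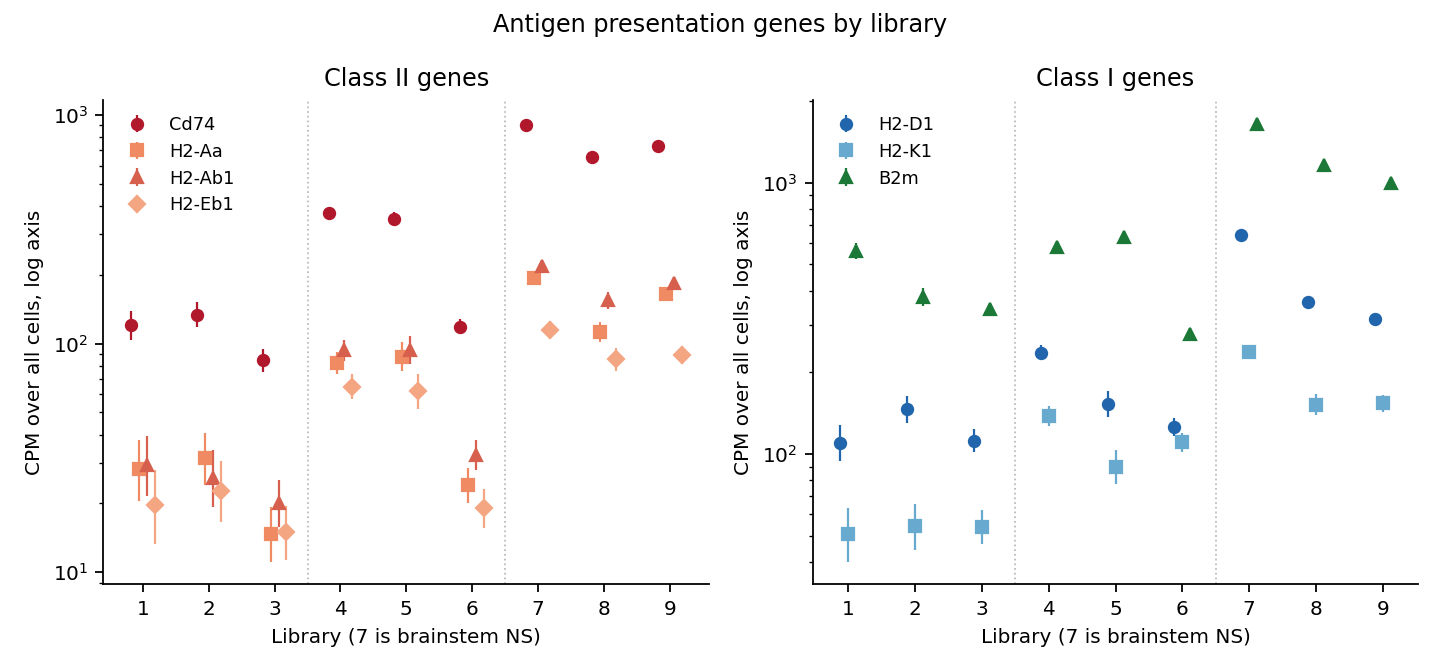
Levels of the class II (left) and class I genes (right) over all cells of each library, in CPM on log axes, with 95% Poisson intervals. Dotted lines divide libraries whose codes share a stem, of unknown meaning. All 7 genes are highest in library 7, and class II has its lowest levels in library 3, with Cd74 at 904 and 84.4 CPM.

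Neighbouring libraries were often not resolved. For Cd74, libraries 4 and 5, libraries 2 and 1, and libraries 1 and 6 had overlapping intervals, while libraries 7, 9 and 8 were distinct in that order. For H2-K1, library 9 overlapped library 8 and library 8 overlapped library 4. The ratio of H2-D1 to H2-K1 UMIs in whole libraries ran from 1.14 in library 6 to 2.70 in library 2.

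The makeup of the libraries differed, and followed these levels in part. Macrophage-like cells were 2.25%, 1.01%, 0.729%, 1.72%, 1.92%, 0.434%, 3.40%, 3.72% and 4.36% of cells in libraries 1 to 9. In library 1 the interval of the share (1.71% to 2.90%) overlapped those of library 4 (1.31% to 2.21%) and library 5 (1.44% to 2.51%), while its Cd74 level was lower. Endothelial-like cells were 24.9%, 21.6% and 15.1% in libraries 7 to 9 and from 1.99% to 9.54% in libraries 1 to 6. Microglia-like cells were 26.2%, 20.4% and 14.2% in libraries 7 to 9 and from 0.715% to 18.0% in the rest. With the macrophage-like cluster left out, H2-D1 was at 293 to 605 CPM in libraries 7 to 9 and 101 to 226 in the others, H2-K1 at 142 to 229 and 48.0 to 131, and B2m at 939 to 1584 and 270.0 to 601. These were 3 of the 5 members with enough UMIs, as against 18.3% of genes. No class II gene was separated there, and the class II sum outside the cluster ran from 15.3 CPM in library 1 to 253 in library 7.

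Within a class the counts of separated members were near those of all genes. In macrophage-like cells 0 of 7 members were higher in all of libraries 7 to 9, where 4.11% of genes were. In endothelial-like cells it was 0 of 4 members tested, with 4.82% of genes. In microglia-like cells it was 1 of 7, B2m, with 3197 to 4062 CPM in libraries 7 to 9 and 1509 to 2841 in the others, where 4.48% of genes were separated.

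Within macrophage-like cells Cd74 was at 7743, 16582, 17809, 28486, 24557, 22139.5, 23065, 17799.7 and 18611 CPM in libraries 1 to 9. Library 1 was lowest and library 4 highest. The share of class II-high cells was 22.4% in library 1 and 34.4% and 40.0% in libraries 2 and 3. It was 70.0%, 75.0% and 70.6% in libraries 4 to 6, and 47.2%, 43.5% and 57.4% in libraries 7 to 9. The subclusters differed between libraries too. Subcluster 1, where 16.4% of cells were high, held 35 of 58, 16 of 32 and 12 of 20 macrophage-like cells in libraries 1 to 3 and none in libraries 4 to 6, where subcluster 3 (73.3% high) held 44 of 60, 22 of 52 and 12 of 17. In libraries 7 to 9, subcluster 1 held 47 of 127, 44 of 131 and 59 of 162. The part of this makeup in the shares was not tested. Macrophage-like cells held from 54.3% of class II UMIs in library 6 to 92.4% in library 1.

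Microglia-like cells varied more. Their Cd74 level was 23.2, 296, 415, 1835, 1898, 955, 493, 103 and 306 CPM in libraries 1 to 9. Libraries 4, 5 and 6 were highest, with 112, 111 and 28 such cells, of which 6, 8 and 2 had class II at 1% of UMIs or more. The other 6 libraries had 0 to 4 such cells among 149 to 978. A Cd74 UMI was found in 9.82%, 14.4% and 14.3% of microglia-like cells in libraries 4 to 6 and in 12.0%, 5.72% and 14.4% in libraries 7 to 9. The high level in libraries 4 to 6 thus rested on few cells with many UMIs, up to 36 in a cell. The part of macrophages placed in this class was not tested.

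**Figure D5:**
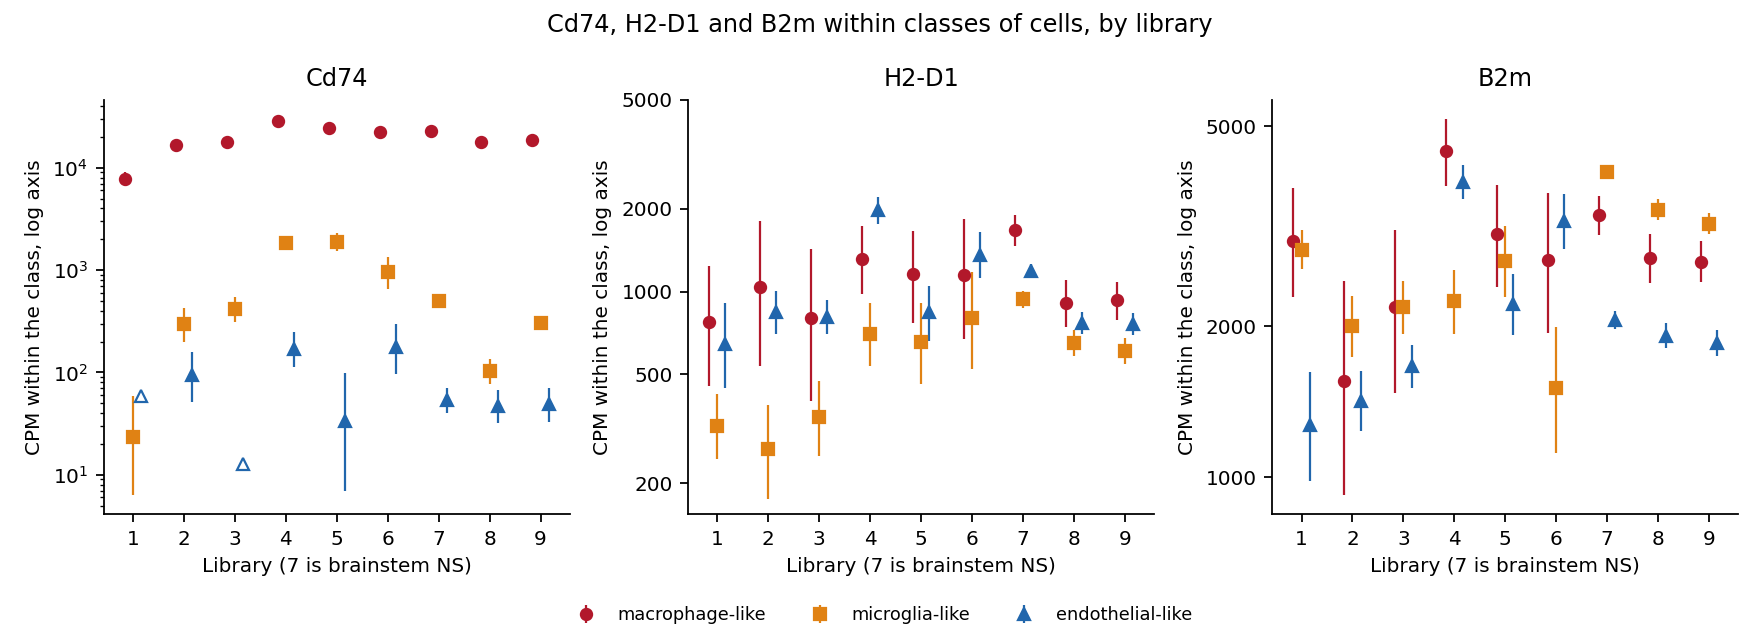
Levels of Cd74, H2-D1 and B2m within macrophage-like, microglia-like and endothelial-like cells of each library, in CPM of the class on log axes, with 95% Poisson intervals. Open triangles mark 0 UMIs at the limit that 3 counts allow. Cd74 in macrophage-like cells stays between 7743 and 28486 CPM, and libraries 4 and 6 have the highest endothelial-like H2-D1 and B2m.

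H2-D1 in microglia-like cells was at 325, 266 and 349 CPM in libraries 1 to 3, and at 608 to 936 CPM in libraries 4 to 9. Counts were small, with 56, 27 and 42 UMIs in libraries 1 to 3 and 59, 36 and 26 in libraries 4 to 6. The share of all genes divided in this way was not counted, so the division is a description. Endothelial-like cells had H2-D1 at 646, 841, 809, 1974, 839, 1361, 1189, 769 and 762 CPM. Their H2-K1 was at 157, 269, 334, 764, 347, 579.8, 500.4, 317 and 382 CPM, and B2m at 1273, 1420, 1664, 3875, 2215, 3239, 2058, 1914 and 1852 CPM. Library 4 was highest for all 3 genes in this class and library 6 was next. In these 2 libraries 81.7% and 85.9% of endothelial-like cells lay in cluster 5, which is led by Plvap, Igfbp3 and Fabp4. So did 80.9% in library 1, which was lowest for all 3 genes, from 33, 8 and 65 UMIs.

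The other endothelial-like cluster, cluster 6, was led by Slco1a4, Pglyrp1 and Itm2a, genes of barrier endothelium. In library 4, cells of cluster 5 had 1.72 times (1.22 to 2.48) the H2-D1, 5.50 times (2.29 to 17.3) the H2-K1 and 2.04 times (1.57 to 2.69) the B2m of cluster 6. In library 6 the ratios were 2.67 (1.19 to 7.45) for H2-D1 and 2.22 (1.36 to 3.87) for B2m. Over the 9 libraries the interval of the H2-D1 ratio was above 1 in 2, that of H2-K1 in 1 and that of B2m in 2. It was below 1 in 1, 2 and 3 libraries. Library 3 was below 1 for all 3 genes, with H2-D1 at 0.525 (0.364 to 0.744), H2-K1 at 0.511 (0.280 to 0.885) and B2m at 0.688 (0.545 to 0.863). B2m was also below 1 in library 7, at 0.805 (0.727 to 0.890), and library 8, at 0.694 (0.615 to 0.783), and H2-K1 in library 9, at 0.688 (0.515 to 0.912). The direction between these clusters thus differed between libraries.

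Outside the immune and vascular classes, Cd74 was highest in the 421 pituitary stem or folliculostellate-like cells, at 263 CPM. A UMI was found in 33.0% of them at a median of 1672 UMIs, and in 12.4% after thinning to 500. In these cells H2-D1 was at 506, H2-K1 at 486 and B2m at 542 CPM. Fibroblast or leptomeningeal-like cells had Cd74 at 168, H2-D1 at 367 and B2m at 734 CPM. The 3795 neuron-like cells of all libraries were low in class I, with H2-D1 at 44.4, H2-K1 at 9.07 and B2m at 122 CPM. By library their H2-D1 was at 29.3, 29.8, 21.1, 31.7, 68.2, 55.3, 291, 149 and 119 CPM. Libraries 7 to 9 were thus highest in these cells too, and those libraries also held the largest shares of endothelial-like cells, whose part in the neuronal level was not tested. Over whole libraries 18.4% of genes were separated in this way, and the share within neuron-like cells was not counted.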

How the data were processed

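The deposited table holds UMI counts, whole numbers to which the authors applied no normalization. Per the labels and the study's methods, reads were mapped to GRCm38 with GENCODE M21 by Cell Ranger 2.2.0, which counts only reads that map to 1 gene. The study's own comparisons, which hold fold changes and p-values, were not used. The cell type list of brainstem NS was read for its first 1999 cells, of which 1998 had a named type.

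Members were named by pathway and no measured value entered their rule, but members and lists were chosen with earlier results of these data known. Named genes were the 7 members, genes of 4 pathway lists with at least 20 UMIs in the listed cells, marker genes, and the 3 genes most like Cd74, B2m, H2-D1 and H2-K1. Ciita and leading genes of subclusters fall outside this rule and were named after their values were seen. Of 126 marker genes, 123 were in the table. Some list genes are not reported here.

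Counts were summed over cells and given as CPM with exact Poisson intervals, shares with exact Clopper-Pearson intervals and ratios with exact conditional binomial intervals, all at 95%. Neighbours in an order were read as unresolved where their intervals overlapped. Shares depend on depth and were repeated after thinning to 500 UMIs per cell. Droplet counts also carry free RNA, which thinning does not remove. Thresholds of 4-fold and 1% of UMIs are descriptive. Cells were clustered without the MHC genes on 2000 variable genes, 13 principal components, 20 neighbours and Leiden resolution 1, and a cluster was called X-like from at least 3 markers 2-fold higher. No doublet caller was run. The alternatives, 24 over all results, covered the CPM total, means over cells, a minimum of 1000 UMIs, the 5% of cells with most UMIs, free RNA, clusters in place of listed types, thinning, pseudocount and resolution 0.5.

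On simulated data of 1918 cells of 8 types, 9 clusters were found (adjusted Rand index 0.852). Each simulated cell was drawn from the summed profile of its type. Differences among cells of a type, doublets and mixed labels were therefore not simulated, and real cells can be harder to divide. Of 200 genes raised 6-fold in a set the size of the macrophages, among 5703 genes, 70.0% were called at 4-fold, as were 94.6% of the 93 at 50 CPM or more and 0.0% of unchanged genes. Both sets were drawn from 1 pooled profile apart from the raised genes, so these shares cover counting error only. Clusters were made with leidenalg 0.10.2, python-igraph 0.11.9 and scikit-learn 1.9.0 under Python 3.11.15. Intervals came from scipy 1.17.1, tables from pandas 2.3.3 with numpy 2.4.6, and figures from matplotlib 3.10.9.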

Additional observations from a re-analysis of the deposited data

How the results depend on the processing

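The 10.7-fold range of class II over libraries was 6.62-fold as a mean over cells, with library 9 in place of library 7 as the highest, and 490-fold (135 to 4043) in cells of at least 1000 UMIs, where the lowest library, library 1, had 2 UMIs. Cd74 and H2-Eb1 had no range there because library 1 had 0 UMIs. The 4.96-fold range of class I was 5.43-fold with mitochondrial, hemoglobin and pituitary hormone genes out of the total, 5.59-fold as a mean over cells, 10.5-fold in cells of at least 1000 UMIs and 5.75-fold without the 5% of cells with most UMIs. Class II in listed macrophages, 39475 CPM, was 41289, 37540.4, 44988 and 41976 CPM under the same 4 settings. With clusters in place of the list it was 36455 CPM over 124 cells, a set other than the 127 macrophage-like cells of library 7. It was 43998 CPM without the listed cells of subclusters 6 and 7, an alternative chosen after seeing the data. Class I in listed endothelial cells, 3829 CPM, was 4139 CPM with the reduced total, 3617 CPM at 1000 UMIs or more and 3395 CPM with the lowest type subtracted. The cause of these shifts was not tested.

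Ranges of single members moved beyond their intervals for all 5 that had a value in cells of at least 1000 UMIs (H2-Aa 138-fold, H2-Ab1 149-fold, H2-K1 119-fold, B2m 8.45-fold, and H2-D1 between the last 2), for 5 of 7 as means over cells, and for 1 of 7 both with the reduced total and without the deepest cells. The class II ratios were also taken between the 127 macrophage-like and 978 microglia-like cells of library 7, an alternative chosen after seeing the data. All 4 ratios of macrophages to microglia were then lower, at 46.6 to 82.1. The genes most like a member changed for 3 of 4 members at a pseudocount of 1 CPM, thinned shares moved for 3 of 7 members, and 2 of 21 levels moved at resolution 0.5. No paired analysis was possible because each region and sleep group is 1 library and 8 of the 9 could not be assigned. Counts limit class II outside macrophages, where the listed types held from 5 UMIs (each of the neuron types) to 160 (microglia). Library 1 had the fewest class II UMIs, 301, and the fewest UMIs in total, 1522766.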
